A study of Homo sapiens with 8 samples.

Results

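IFITM1, IFITM2, IFITM3 and LY6E are 4 interferon (IFN)-stimulated genes (ISGs) among the 57992 genes of the Molm13 count table and the 58174 of the THP1 table. They were selected by name, with their response to PRMT9 knockdown (KD) in these libraries already known, and LY6E was chosen because it responded mainly in THP1. Their values under shPRMT9 against shCtrl, and the difference of that response between the lines, are therefore given as a description without a test. Bulk poly(A) RNA-seq was performed on Molm13 and THP1, human acute myeloid leukemia (AML) cell lines of monocytic type that carry MLL fusions. Each line expressed a control hairpin (shCtrl, which the labels call WT) or a hairpin against PRMT9 (shPRMT9), an arginine methyltransferase, and both arms were treated with Dox to induce the hairpin. There were 2 libraries per group and 8 in total. Whether the 2 libraries of a group came from separate cultures is not given, so that p-values measure only the spread between these libraries, which may be technical. The numbers 1 and 2 in the names of the shPRMT9 libraries were taken for replicate numbers, although the study also numbers its hairpins in this way, and the THP1 library names carry the letters OCI beside the label THP1.

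IFITM proteins are small membrane proteins of the CD225 family that hinder the fusion of enveloped viruses with host membranes. IFITM1 sits mostly at the cell surface, whereas IFITM2 and IFITM3 carry a longer N-terminal tail with an endocytosis signal and sit mostly in endosomes. LY6E belongs to another family, that of the LY6 and uPAR domain proteins, and is held at the cell surface by a GPI anchor. IFNs bind receptors that activate the JAK kinases, which phosphorylate STAT proteins, and a complex of these with IRF9 binds the IFN-stimulated response element (ISRE) in the promoters of ISGs.

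Total counts ranged from 18720950 to 27356870 per library, and TMM factors from 0.985 to 1.02. Replicates of a group differed by more than sampling noise (chi-square per gene of 1.35 to 2.18), so that no library was counted as a copy of another. PRMT9 was 15.5 ± 1.07 CPM (counts scaled to library size, mean ± SD, n = 2) in Molm13 shCtrl and 2.40 ± 0.325 in Molm13 shPRMT9, and 12.5 ± 0.278 against 2.58 ± 0.252 in THP1. Of 13 markers of myeloid leukemia lines, 13 were above 1 CPM in Molm13 and 12 in THP1, where MEIS1 was not. Their summed level was 1972 to 1984 CPM in Molm13 shCtrl and 2794 to 2809 in Molm13 shPRMT9, and 2864 to 2873 and 4065 to 4228 in THP1, so that the sum moved with the KD in both lines. LYZ made up most of it in THP1, at 1893 and 1909 CPM in shCtrl and 3128 and 2970 CPM in shPRMT9. Other markers went either way with shPRMT9. CSF1R rose (log2 2.06 in Molm13 and 1.03 in THP1), as did ITGAM (1.95 and 1.15). Markers with lower levels included MPO (log2 -0.82) and HOXA10 (-0.59) in THP1 and CEBPB (-0.77) in Molm13. The part of these markers in the results was not tested. The T cell markers summed to at most 0.586 CPM and the erythroid markers to at most 0.274 CPM in any library. Of 7 B cell markers, 1 was above 1 CPM in each group, PAX5. The B cell markers summed to 42.3 to 43.0 CPM in Molm13 shCtrl and 39.8 to 40.9 in Molm13 shPRMT9, but to 4.30 to 4.86 CPM in THP1 shCtrl and 12.5 to 14.2 in THP1 shPRMT9, where PAX5 rose (log2 2.03 ± 0.134). Their part in the results was not tested either. In bulk RNA, fewer cells with a transcript and less of it per cell cannot be told apart.

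The 3 IFITM genes lie together near the start of chromosome 11 (GRCh38, coordinates of the deposited Molm13 table, which have the same extents in GENCODE release 29). IFITM1 (ENSG00000185885) spans chr11:313506-315272 on the plus strand, IFITM2 (ENSG00000185201) chr11:307631-315272 on the plus strand, and IFITM3 (ENSG00000142089) chr11:319669-327537 on the minus strand. LY6E (ENSG00000160932) spans chr8:143017982-143023832 on the plus strand. The extent of IFITM2 thus covers all of IFITM1, because 1 of its 6 transcripts ends in the last exon of IFITM1. These 351 bases, chr11:314922-315272, make up 32.5% of the 1080 exon bases of IFITM1 and 22.7% of the 1543 of IFITM2. Where reads that fall in exons of both genes were assigned is not given in the sources used here.

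**Figure D1:**
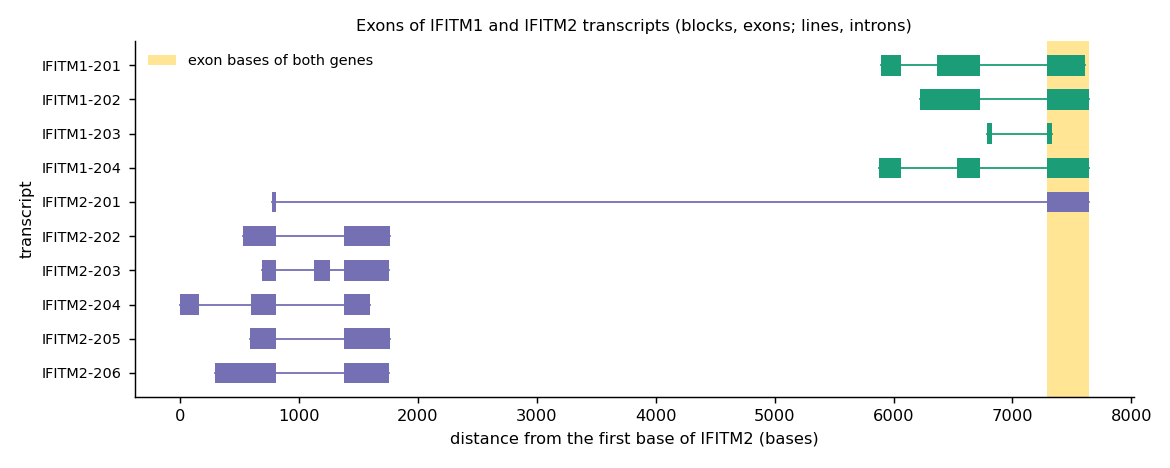
Exons (blocks) and introns (lines) of the IFITM1 and IFITM2 transcripts in GENCODE release 29, by distance in bases from the first base of IFITM2. The shaded 351 bases at the right belong to exons of both genes, in IFITM2 through a single transcript.

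The coding genes also resemble each other. Of the 1067 distinct stretches of 50 bases in IFITM1 transcripts, 9.18% occurred in an IFITM3 transcript, and of the 1453 in IFITM2 transcripts, 12.9% did. For LY6E, 0 of 3002 stretches occurred in a transcript of another gene. Reads from the shared stretches of the IFITM genes cannot be assigned by sequence to 1 gene, so that their counts carry this uncertainty. The pseudogenes IFITM4P, IFITM8P and IFITM9P had at most 7 counts in a library.

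RefSeq promoter sequences were found for 2 of the 4 genes, IFITM1 and IFITM3 (GRCh38.p14). They are shown because only these 2 genes had an entry and because the ISRE is the site through which IFNs act on such genes. The 10-base ISRE core GAAANNGAAA, searched on both strands, is in capitals in the 150 bases before the RefSeq start and the first 10 bases from it, at chr11:313890-314049 on the plus strand for IFITM1 and at chr11:320851-321010 on the minus strand for IFITM3.
IFITM1: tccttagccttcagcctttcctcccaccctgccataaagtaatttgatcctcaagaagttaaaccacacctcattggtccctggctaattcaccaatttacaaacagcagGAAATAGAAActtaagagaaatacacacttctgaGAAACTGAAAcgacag
IFITM3: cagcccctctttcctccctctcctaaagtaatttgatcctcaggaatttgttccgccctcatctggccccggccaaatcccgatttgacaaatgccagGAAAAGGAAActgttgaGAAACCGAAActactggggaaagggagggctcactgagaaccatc

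Each stretch held the core at 2 places. With the start base as 0, the 2 matches in IFITM1 began at -40 and -6, and those in IFITM3 at -52 and -35. Both genes also share an unbroken run of 19 bases, taaagtaatttgatcctca, which begins at -116 in IFITM1 and at -127 in IFITM3. Of all 35116 promoters of the same 300 bases in length, 3.57% held the ISRE core. Among a list of 40 IFN-induced antiviral effectors other than the 4 genes, 21 of the 30 with a promoter entry did (70.0%). The GAS element TTCNNNGAA, the site of dimers of STAT proteins, was in 7.66% of all promoters and in 7 of the 30 of the effectors (23.3%). It was in that of IFITM1, where it overlaps the second ISRE core, but its letters were not found in the window of IFITM3. A match in letters is a description of the sequence and does not show that a factor binds there.

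IFITM1 was 10.3-fold higher under shPRMT9 in Molm13 and 8.59-fold higher in THP1. It had 26 and 25 counts in the Molm13 controls and 239 and 291 with shPRMT9, which is 1.27 and 1.28 against 12.7 and 13.7 CPM. In THP1, it had 11.1 and 10.9 CPM in shCtrl and 95.5 and 93.6 CPM in shPRMT9. Each shPRMT9 library was far above both controls of its line, and the THP1 controls reached almost the level of the Molm13 shPRMT9 libraries. The log2 fold change (shPRMT9 over shCtrl, with its standard error) was 3.37 ± 0.161 in Molm13 and 3.10 ± 0.0618 in THP1. Expressed as the lowest and the highest ratio of a shPRMT9 to a shCtrl library, the fold was 9.91 to 10.7 in Molm13 and 8.46 to 8.80 in THP1.

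IFITM2 differed least among the IFITM genes. Molm13 shCtrl libraries had 30.2 and 28.6 CPM of IFITM2 and shPRMT9 libraries 37.9 and 40.3 CPM. THP1 shCtrl libraries had 45.3 and 41.6 CPM and shPRMT9 libraries 62.0 and 63.7 CPM. The log2 fold change was only 0.42 ± 0.0614 in Molm13 and 0.53 ± 0.0544 in THP1, a fold of 1.34 and 1.44. The mean level of IFITM2 was higher by 9.70 CPM in Molm13 shPRMT9 and by 19.4 CPM in THP1 shPRMT9, whereas that of IFITM1, with which it shares an exon, was higher by 11.9 and 83.6 CPM. Whether reads of one gene were counted for the other was not tested.

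IFITM3 was low in Molm13 and the most abundant of the 4 genes in THP1. It had 5.0 CPM in each Molm13 shCtrl library, from 102 and 98 counts, and 9.53 and 9.11 CPM with shPRMT9. In THP1, it had 61.6 and 57.8 CPM in shCtrl and 406 and 425 CPM in shPRMT9, from 10147 and 10487 counts. Even the THP1 controls thus exceeded the Molm13 shPRMT9 libraries. The log2 fold change was 0.90 ± 0.128 in Molm13 and 2.79 ± 0.0403 in THP1, a fold of 1.87 and 6.93. The gain in level was 4.32 CPM in Molm13 and 355.5 CPM in THP1.

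LY6E had nearly the same level in both arms of Molm13, 77.9 and 77.3 CPM in shCtrl and 87.2 and 85.2 CPM in shPRMT9. In THP1, it had 32.6 and 30.0 CPM in shCtrl and 173 and 177 CPM in shPRMT9. The control levels were thus lower in THP1 than in Molm13 and the shPRMT9 levels higher. The log2 fold change was 0.16 ± 0.0417 in Molm13 and 2.48 ± 0.0478 in THP1, a fold of 1.12 and 5.57. The plot of CPM by library shows the 4 genes on 1 scale.

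**Figure D2:**
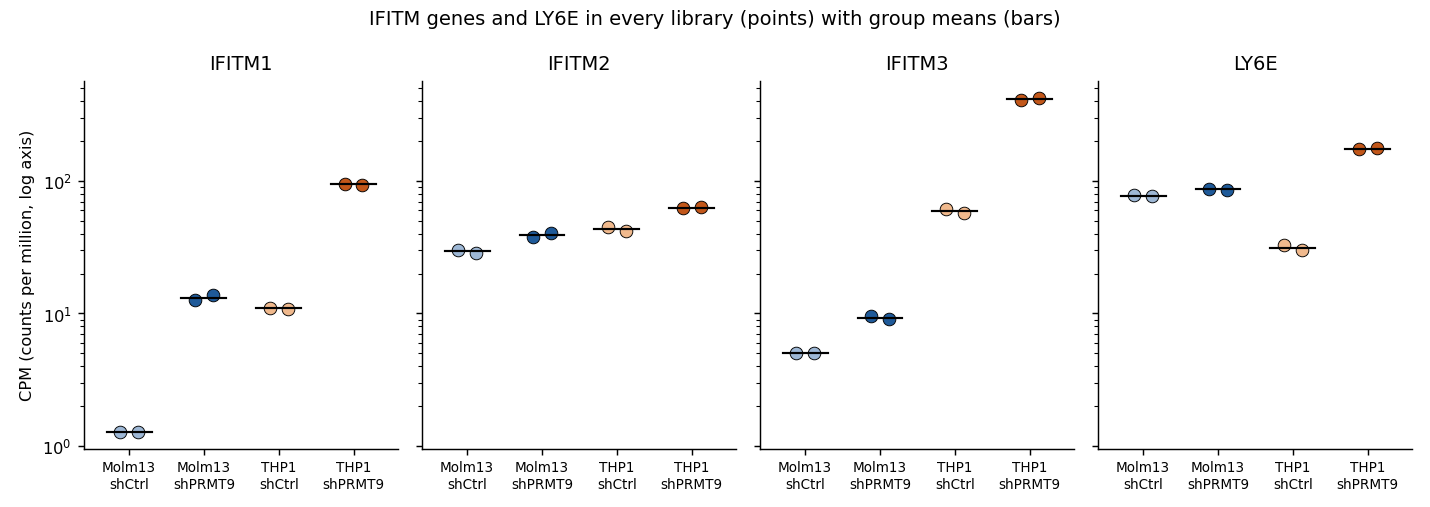
CPM on a log axis of IFITM1, IFITM2, IFITM3 and LY6E in each of the 8 libraries (points, 2 per group) with the group mean (bar). IFITM1 was higher with shPRMT9 in both lines, IFITM3 reached 406 and 425 CPM in THP1 shPRMT9 alone, and LY6E was lower in THP1 than in Molm13 controls but highest in THP1 shPRMT9.

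By fold alone, 2 of the 4 genes (IFITM1 and IFITM3) were over 1.5-fold higher in Molm13 and 3 of 4 (with LY6E) in THP1. Over all genes, 11.4% of 16446 tested in Molm13 and 3.83% of 16294 tested in THP1 were called up, that is at a false discovery rate (FDR) below 0.05, a fold change above 1.5 and an RPKM above 1 in at least 1 library, and 11.3% and 2.39% were called down. Since the genes were chosen on these contrasts, nothing is read from their number. Ordered by log2 fold change from the highest, IFITM1 came 63rd, IFITM3 1706th, IFITM2 4011th and LY6E 6478th in Molm13. In THP1, IFITM1 came 42nd, IFITM3 59th, LY6E 77th and IFITM2 1508th.

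The difference of the 2 responses, THP1 minus Molm13, on the log2 scale was -0.26 ± 0.212 for IFITM1, 0.12 ± 0.0838 for IFITM2, 1.90 ± 0.138 for IFITM3 and 2.33 ± 0.0639 for LY6E. As a ratio of the 2 fold changes, the last 2 values are 3.74-fold and 5.04-fold. In the same fit of all 8 libraries, 20.9% of 19288 genes were called for a difference in either direction. These values share their libraries with the contrasts on which the genes were chosen and are given without a test.

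**Figure D3:**
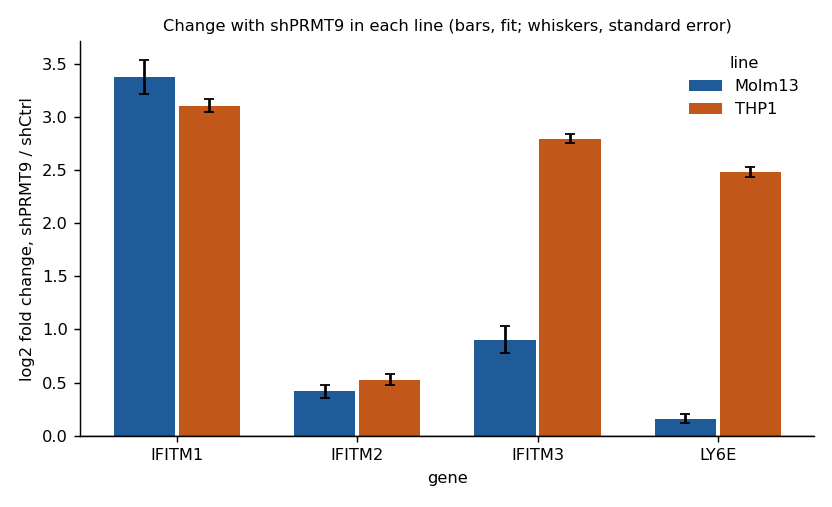
Log2 fold change of shPRMT9 over shCtrl for IFITM1, IFITM2, IFITM3 and LY6E in Molm13 and in THP1, with the standard error of the fit as whiskers. The bars of IFITM1 and IFITM2 are of like height in both lines, whereas those of IFITM3 (0.90 and 2.79) and LY6E (0.16 and 2.48) are not.

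The control levels of the 4 genes were compared between the lines with edgeR's quasi-likelihood test and Benjamini-Hochberg adjustment over 19288 genes. The rule that chose the genes did not use this comparison, although it shares its control libraries with those that did. IFITM1 was 8.56-fold (log2 3.10 ± 0.160, adjusted p = 7.34e-33) and IFITM3 11.9-fold (log2 3.57 ± 0.0779, adjusted p = 5.06e-62) higher in THP1 shCtrl than in Molm13 shCtrl by edgeR. LY6E was 2.48-fold lower in THP1 (log2 -1.31 ± 0.050, adjusted p = 1.65e-42, edgeR). The choice of LY6E for a response mainly in THP1 favours this direction, because a low THP1 control and a high Molm13 control widen that response. The p-value of LY6E is thus not independent of the choice. IFITM2 was 1.48-fold higher in THP1, with an adjusted p of 5.33e-14 by edgeR, and was under the 1.5-fold limit, which it passed without THP1 shCtrl replicate 2 (log2 0.64). That made 3 of 4 genes called, against 59.5% of all genes, so that a difference of this kind between the controls was common. The lines come in separate tables, and line and handling of the libraries cannot be told apart.

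Between the shPRMT9 groups, all 4 genes were over 1.5-fold higher in THP1. This difference is the sum of that between the controls and that of the responses on which the genes were chosen, so that it is given without a test, and 64.5% of all genes were called for it in either direction. IFITM3 was 44.6-fold higher in THP1 shPRMT9 than in Molm13 shPRMT9 (log2 5.48 ± 0.0534). For IFITM1, the fold was 7.17, for LY6E 2.03 and for IFITM2 1.61. LY6E was thus the gene whose order between the lines was opposite in the 2 arms. PRMT9 itself differed between the shPRMT9 groups by 0.09 ± 0.199 on the log2 scale (adjusted p = 0.663, edgeR), and between the shCtrl groups by -0.31 ± 0.0950 (adjusted p = 0.00239, edgeR).

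Levels of different genes were compared as RPKM, that is per kilobase of exon. In Molm13 shCtrl, LY6E (29.4 ± 0.185 RPKM) stood above IFITM2 (19.1 ± 0.711), IFITM3 (3.71 ± 0.00195) and IFITM1 (1.18 ± 0.00127). In Molm13 shPRMT9, IFITM1 (12.2 ± 0.665 RPKM) had passed IFITM3 (6.91 ± 0.219), below LY6E (32.7 ± 0.534) and IFITM2 (25.4 ± 1.12). IFITM1 and IFITM3 are the pair that changed places.

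In THP1 shCtrl, the order was IFITM3 (44.3 ± 1.98 RPKM), IFITM2 (28.2 ± 1.67), LY6E (11.9 ± 0.705) and IFITM1 (10.2 ± 0.133). In THP1 shPRMT9, it was IFITM3 (308 ± 10.1 RPKM), IFITM1 (87.6 ± 1.29), LY6E (66.3 ± 0.985) and IFITM2 (40.7 ± 0.786), so that IFITM2 had gone from the second to the last place. No 2 neighbours in these orders overlapped in their libraries. The closest were LY6E and IFITM1 in THP1 shCtrl, at a ratio of 1.17. If the 351 bases shared with IFITM2 and IFITM1 are left out of the exon length, which is the fitting length if reads there were counted for neither gene, IFITM1 in THP1 shCtrl is 15.0 RPKM and comes before LY6E, and IFITM2 in Molm13 shPRMT9 is 32.8 RPKM and just above LY6E (32.7). This setting was chosen after seeing the data.

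**Figure D4:**
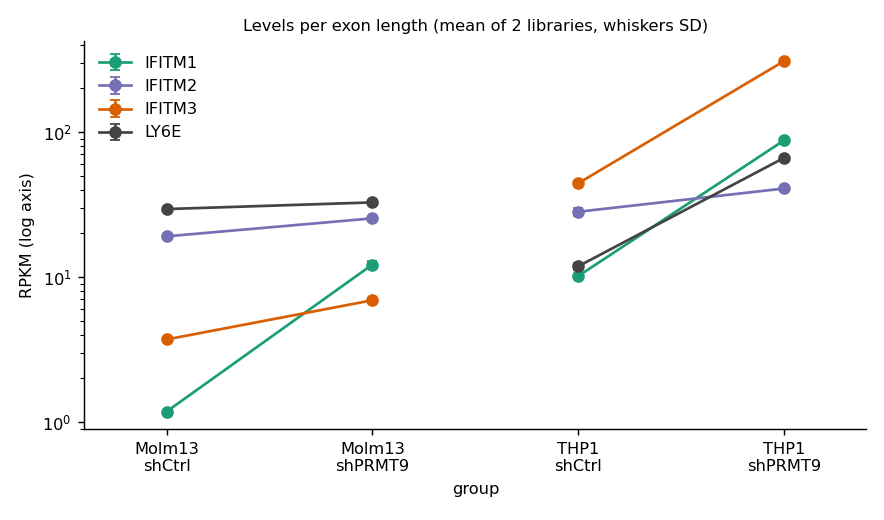
RPKM on a log axis of IFITM1, IFITM2, IFITM3 and LY6E in the 4 groups (mean of 2 libraries, whiskers SD, lines joining the arms of a line). LY6E and IFITM2 lead in Molm13, IFITM3 leads in THP1 at 44.3 and 308 RPKM, and IFITM1 passes IFITM3 in Molm13 and IFITM2 and LY6E in THP1.

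The makeup of the IFITM transcripts followed from these levels. IFITM2 made up 80.0% and 79.1% of the summed RPKM of the 3 IFITM genes in Molm13 shCtrl, and 56.7% and 57.4% in Molm13 shPRMT9, where IFITM1 had gone from 4.82% and 5.04% to 27.0% and 27.8%. In THP1, IFITM3 made up 53.6% in each control and 70.1% and 71.1% with shPRMT9. The sum itself was 24.5 and 23.5 RPKM in Molm13 shCtrl, 43.4 and 45.6 in Molm13 shPRMT9, 85.3 and 79.9 in THP1 shCtrl and 429.6 and 443.1 in THP1 shPRMT9. In level per length among 19288 genes, IFITM3 stood 70th and 68th in the THP1 shPRMT9 libraries.

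The genes of the IFN pathway were taken from a list of 36. Of the ligands, all 10 IFN genes listed (among them IFNB1 and IFNG) had too few counts to be tested, with 0 to 3 counts per library in Molm13 and 0 to 10 in THP1. The 10 counts belonged to IFNB1 in a THP1 shPRMT9 library, against 8 in the other and 1 in each THP1 control, a gene singled out after its values were seen. Of the receptor genes, 3 of 5 tested rose in Molm13 and 2 of 6 in THP1. IFNGR2, a chain of the IFN-γ receptor, rose by 0.83 ± 0.0408 in Molm13 and by 0.83 ± 0.0586 in THP1 on the log2 scale. IFNAR1, a chain of the type I IFN receptor, rose in Molm13 (log2 0.62 ± 0.0362) and had a log2 value of 0.28 ± 0.0388 in THP1, while IFNGR1 had 0.16 ± 0.0421 in Molm13 and rose in THP1 (0.67 ± 0.0438). The third gene to rise in Molm13 was IL10RB (0.86 ± 0.0547), a chain shared by the receptors of IL-10 and type III IFN. IFNAR2 was 0.03 ± 0.0537 in Molm13 and 0.28 ± 0.0521 in THP1.

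Of the 3 kinase genes, 0 passed both limits in either line by edgeR, as by DESeq2. All 3 had an unadjusted p and an FDR below 0.05 in each line by edgeR, but were under the 1.5-fold limit. On the log2 scale, JAK1 had values of 0.42 ± 0.0310 in Molm13 and 0.15 ± 0.0374 in THP1, JAK2 of -0.20 ± 0.0651 and 0.15 ± 0.0430, and TYK2 of 0.18 ± 0.0316 and 0.39 ± 0.0399. Of the 10 transcription factor genes, 3 rose in Molm13 (IRF7, IRF9 and STAT2) and 5 in THP1, among them the same 3 and IRF2. The call of IRF9 in THP1 was lost without THP1 shPRMT9 replicate 2 (log2 0.57). IRF7, which amplifies IFN transcription, rose by 1.95 ± 0.0800 in Molm13 and 1.61 ± 0.0547 in THP1 (log2). IRF5 and IRF8, which are myeloid members of the family, were 0.40 ± 0.0712 and 0.23 ± 0.0230 in Molm13 and -0.25 ± 0.0557 and -0.23 ± 0.0284 in THP1.

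Of the 7 inhibitor genes, 4 rose in Molm13 (USP18, SOCS1, SOCS3 and PTPN6) and 2 in THP1 (USP18 and SOCS3). The call of SOCS1 in Molm13 (log2 0.71 ± 0.218) was lost under DESeq2 (adjusted p = 0.0788) and without shCtrl replicate 2 (0.51) or shPRMT9 replicate 1 (0.32). IL10RB, IRF9, STAT2, IRF2 and SOCS1 were named after their values were seen. USP18, which removes ISG15 from proteins and blocks the type I IFN receptor, rose in both lines, by 0.77 ± 0.170 in Molm13 and 3.01 ± 0.0781 in THP1 (log2). Its difference between the lines of 2.25 ± 0.199 (edgeR adjusted p = 1.40e-17) stands beside 2.33 for LY6E. SOCS3, an inhibitor of JAK kinases, rose by 0.88 ± 0.158 in Molm13 and 0.66 ± 0.209 in THP1, the latter call being lost without THP1 shCtrl replicate 2 (log2 0.34) and under DESeq2. PTPN6, a phosphatase, rose in Molm13 (0.61 ± 0.0275) and was -0.02 ± 0.0441 in THP1. CISH, another inhibitor of the SOCS family, was 0.12 ± 0.0655 and -0.17 ± 0.0866.

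The list of 40 other IFN-induced antiviral effectors gives a scale for the 4 genes. In Molm13, 29 of the 38 tested rose, with a median log2 fold change of 1.78, and in THP1 37 of the 39 tested rose, with a median of 2.31. The median over all genes tested was 0.000472 in Molm13 and -0.000631 in THP1. Of the 38 tested in both lines, 28 rose in both, 8 in THP1 alone and 1 in Molm13 alone, where alone means that the gene did not pass the limits in the other line. The difference between the lines was called for 12 of 39 effectors with the greater response in THP1 and for 7 with the greater response in Molm13.

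IFI27 (log2 5.32 ± 0.0548 in THP1) and IFI44L (4.61 ± 0.0472 in THP1 and 5.81 ± 0.210 in Molm13) had the highest log2 fold changes of the effectors in THP1. IFI27, a small mitochondrial membrane protein, had 0 and 4 counts in Molm13 shCtrl and 73 and 61 in Molm13 shPRMT9, and did not pass the RPKM limit there in the fit of that line. ZC3HAV1, which binds CpG-rich viral RNA, was lowest in THP1, at 0.19 ± 0.0329, and was 0.18 ± 0.0314 in Molm13.

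IFITM1 stood high among these effectors in both lines, above 29 of 38 in Molm13 and 30 of 39 in THP1. IFITM3 stood above 11 of 38 in Molm13 and 27 of 39 in THP1. LY6E was below all 38 in Molm13 and above 25 of 39 in THP1. IFITM2 stood above 1 of 38 and 2 of 39. These places are a description, since the 4 genes were chosen on the same contrasts.

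**Figure D5:**
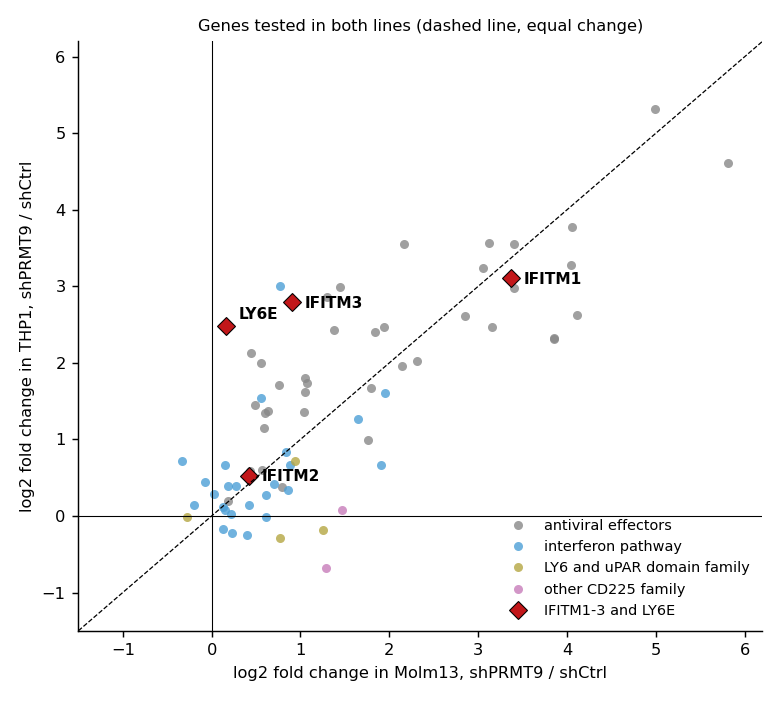
Log2 fold change of shPRMT9 over shCtrl in Molm13 (horizontal) and THP1 (vertical), with a dashed line of equal change. Dots are genes tested in both lines from the lists of antiviral effectors, the IFN pathway, the LY6 and uPAR domain family and the CD225 family. The IFITM modifiers and partners are not plotted. Diamonds are IFITM1, IFITM2, IFITM3 and LY6E. IFITM1 (3.37 and 3.10) and IFITM2 (0.42 and 0.53) lie near the dashed line, and IFITM3 (0.90 and 2.79) and LY6E (0.16 and 2.48) far above it.

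Enzymes that modify IFITM proteins and their known partners were taken from a list of 12, all tested. In Molm13, 1 passed the limits, ZMPSTE24, a membrane protease that works with IFITM proteins, with 90.0 and 88.7 CPM in shCtrl and 46.5 and 44.9 CPM in shPRMT9, which fell by 0.97 on the log2 scale (± 0.0461). In THP1, 0 passed by edgeR and 0 by DESeq2, with 7 at an unadjusted p below 0.05, and ZMPSTE24 was 0.18 ± 0.0324. At any size of change, 8 of the 12 had an FDR below 0.05 in Molm13 and 6 in THP1 by edgeR. ZDHHC20, a palmitoyltransferase of IFITM3, was 0.14 ± 0.0366 and 0.26 ± 0.0444 in Molm13 and THP1, and VAPA, an endoplasmic reticulum protein that IFITM3 binds, 0.03 ± 0.0321 and 0.25 ± 0.0374. ABHD16A, which removes palmitate from IFITM proteins, was -0.09 ± 0.215 and -0.33 ± 0.168, and FYN, a kinase of the N-terminal tail of IFITM3, -0.27 ± 0.177 and -0.30 ± 0.0952.

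Most relatives of the 4 genes were hardly expressed. Of 9 other genes of the CD225 family, 2 had enough counts to be tested. TMEM91 rose in Molm13, from 3.05 and 3.75 CPM in shCtrl to 9.29 and 9.51 CPM in shPRMT9 (log2 1.46 ± 0.143), but had 2.81 and 3.03 CPM in shCtrl and 3.07 and 2.99 CPM in shPRMT9 of THP1. PRRT1 had at most 24 counts in a library. IFITM5, the bone-specific member beside the cluster, had 1 count in 1 library.

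Of 30 other genes of the LY6 and uPAR domain family, 6 were tested in Molm13 and 7 in THP1. CD59, which shields cells from complement, rose in Molm13 (log2 1.25 ± 0.124) and was -0.19 ± 0.0796 in THP1 (difference -1.43 ± 0.151, edgeR adjusted p = 5.47e-14). The third gene called in Molm13 was PSCA (2.91 ± 0.398), named after its values were seen and not tested in THP1. PLAUR, the urokinase receptor, rose in both, by 0.93 ± 0.0523 in Molm13 and 0.71 ± 0.0646 in THP1. LY6G5B was -0.28 ± 0.158 and -0.01 ± 0.141, and LY6G5C 0.77 ± 0.317 and -0.29 ± 0.220.

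Of 20 other genes within 100 kb, 5 were tested in Molm13, where 2 rose, and 6 in THP1. In THP1, 0 passed the limits by edgeR and 0 by DESeq2, with 1 at an unadjusted p and an FDR below 0.05 by edgeR. At any size of change, all 5 in Molm13 had an FDR below 0.05 by edgeR. SIGIRR, an inhibitory receptor of the IL-1 family 90444 bases from IFITM1, rose in Molm13 (log2 1.47 ± 0.0945) and was -0.14 ± 0.0855 in THP1. SIRT3, a mitochondrial deacetylase, rose in Molm13 (0.62 ± 0.125) and was -0.02 ± 0.107 in THP1, and its call in Molm13 was lost without shCtrl replicate 1 (0.58) or shPRMT9 replicate 1 (0.42). PGGHG was 0.32 ± 0.0777 and -0.06 ± 0.0869, PSMD13, a proteasome subunit, -0.57 ± 0.0393 (under the fold limit, and past it without a count filter or without shCtrl replicate 1) and -0.04 ± 0.0382, and RIC8A -0.26 ± 0.0469 and -0.02 ± 0.0387.

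An RNA that overlaps the extent of IFITM3 from the opposite strand, RP11-326C3.11, was tested in THP1 alone, at a log2 value of 1.22 ± 0.473 from 9, 6, 18 and 15 counts, and did not pass the RPKM limit. Within 100 kb of LY6E, C8orf31 rose in THP1 (log2 1.42 ± 0.222) and had a mean of 0 counts in Molm13, and RP11-273G15.2, which overlaps 88 exon bases of LY6E on the opposite strand, was 1.83 ± 0.568 in Molm13 from 1, 7, 18 and 11 counts, without passing the RPKM limit. The strand setting of the counting is not given in the sources used here, so that overlapping reads of opposite strands may not have been told apart.

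For each of the 4 genes, the 5 genes with the most similar pattern over the 8 libraries were named, by the smallest root mean square difference of centred log2 CPM among 15258 genes. For IFITM1, these were EPSTI1 (0.321), OAS2 (0.335), IFI44 (0.348), MX2 (0.401) and OASL (0.417), of which OAS2, IFI44, MX2 and OASL are on the list of effectors. For IFITM2, they were SAMHD1 (0.0573), F8 (0.0575), TM7SF3 (0.0642), NUCB1 (0.0670) and LPCAT2 (0.0672). For IFITM3, CYBB (0.169) was by far the nearest, ahead of IGFBP3 (0.404), CTSH (0.449), GBP4 (0.453) and ABCC3 (0.468). For LY6E, they were S100A9 (0.279), IL15RA (0.288), NEXN (0.330), CXCL11 (0.392) and LPXN (0.401). The libraries share lines and arms, so that these likenesses rest on 4 group levels.

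CYBB, the catalytic chain of the phagocyte NADPH oxidase, was higher with shPRMT9 by 0.88 in Molm13 and 3.12 in THP1 on the log2 scale, and was 3.19 higher on the log2 scale in THP1 than in Molm13 controls, beside 0.90, 2.79 and 3.57 for IFITM3. S100A9, a calcium-binding protein of myeloid cells, had 0.58, 1.87 and -0.98, and IL15RA, a chain of the IL-15 receptor, 0.27, 2.15 and -1.58, beside 0.16, 2.48 and -1.31 for LY6E. Both had lower control levels in THP1 than in Molm13, as LY6E did. With Pearson's correlation of log2 CPM as the measure, 3 of the 20 named genes were among the nearest 5 again (MX2 for IFITM1, TM7SF3 for IFITM2 and CYBB for IFITM3).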

How the data were processed

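Poly(A) RNA-seq of Molm13 and THP1 with shCtrl or shPRMT9 was analysed, 2 libraries per group. The submitters' processing notes name TopHat2 2.0.8, HTSeq 0.11.2, edgeR 3.30.3 and hg38. The authors deposited raw read counts per gene, without normalization, 1 table per line. The Molm13 table also gives coordinates and total exon lengths, which were used for RPKM in both lines. The strand setting and the handling of reads in overlapping genes are not given in the sources used here. Libraries held 18720950 to 27356870 counts, and intervals for low genes are set by counting error as well as by the spread of replicates.

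The 4 genes and all gene lists were chosen with earlier results of these data known. In R 4.3.3 with edgeR 4.0.16, the lines were fitted separately for shPRMT9 against shCtrl and together (19288 genes) for comparisons between the lines, without a replicate block, with TMM, filterByExpr, the quasi-likelihood test and Benjamini-Hochberg adjustment over all genes tested. A call required FDR under 0.05 and more than 1.5-fold change, and within a line also an RPKM over 1 in 1 or more libraries. For each standard error, the size of the log2 estimate was divided by the root of its F value. CPM and RPKM of the 4 genes and CPM of PRMT9 use TMM-scaled library sizes, and CPM of other genes the library totals. The fits were tested on simulated data. Alternatives were DESeq2 1.42.0, its size factors, library size alone, no count filter, a fold limit of 2, a common fit, the replicate number as a block and leaving out each library.

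The genes named are the 4, PRMT9, the genes of each list with the 2 highest and the 2 lowest log2 fold changes in THP1 per role, the tested genes within 100 kb, and the 5 genes nearest in pattern (log2 CPM with a prior count of 2, genes with a mean of at least 20 counts). Others named (IFNB1, IL10RB, IRF9, STAT2, IRF2, SOCS1, PSCA, ZMPSTE24, IFITM5, MEIS1, PAX5, LYZ, CSF1R, ITGAM, MPO, HOXA10, CEBPB, the pseudogenes) were chosen after their values were seen. Some genes that this rule names are not reported here. Promoters are from RefSeq (GRCh38.p14).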

Additional observations from a re-analysis of the deposited data

Results flagged for a closer look

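For 18 of the listed and neighbouring genes named above, the response to shPRMT9 was not the same in Molm13 and THP1 by edgeR's test over all 8 libraries. The differences are on the log2 scale, THP1 minus Molm13. In the IFN pathway, the difference was 2.25 for USP18 and 1.07 for IRF2, and -1.22 for IRF9, -0.61 for PTPN6 and -0.64 for IRF5. Among the antiviral effectors, it was -1.20 for IFI44L, -1.48 for OAS2 and -1.52 for OASL. Over the whole list of effectors, 12 of 39 were called with the greater response in THP1 and 7 with the greater response in Molm13. In the families of the IFITM genes and of LY6E, it was -1.38 for TMEM91, -1.95 for PRRT1, -1.43 for CD59, -1.05 for LY6G5C and -2.09 for PSCA, and it was 1.17 for the IFITM partner ZMPSTE24. Of the genes beside the IFITM cluster, it was -0.63 for SIRT3 and -1.60 for SIGIRR, and of the cell type markers 1.19 for CEBPB and 2.16 for PAX5. For the markers CSF1R and ITGAM, which are not counted in the 18, it was -1.01 and -0.79. PRRT1, LY6G5C and PSCA rest on at most 62 counts in a library, and none of these 3 passed with DESeq2 (adjusted p = 0.0960, 0.116 and 0.0751). PRRT1 and LY6G5C also lost their calls without Molm13 shCtrl replicate 2 (-1.27 and -0.93) or Molm13 shPRMT9 replicate 2 (-1.79 and -1.09), and PRRT1 without THP1 shPRMT9 replicate 1 (-1.62). PSCA lost its call without Molm13 shCtrl replicate 1 (-1.83), Molm13 shPRMT9 replicate 1 (-2.06), THP1 shCtrl replicate 1 (-1.51) or THP1 shPRMT9 replicate 2 (-1.76), and IFI44L without Molm13 shCtrl replicate 1 (-1.07). IRF5 came under the fold limit without THP1 shPRMT9 replicate 1 (-0.58), and SIRT3 without Molm13 shPRMT9 replicate 1 (-0.46) or THP1 shPRMT9 replicate 2 (-0.53). The differences of IFITM3 and LY6E themselves were not tested, since these genes were chosen with them known.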

How the results depend on the processing

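No log2 fold change of IFITM1, IFITM2, IFITM3 or LY6E changed sign in any of the alternatives run, and the tests between the controls of the lines stayed past an adjusted p of 0.05 in each of them (edgeR or DESeq2). With library size alone, the difference between the lines for IFITM1 was -0.30. Leaving out 1 library at a time, the log2 fold change in Molm13 ranged from 3.33 to 3.43 for IFITM1, 0.39 to 0.47 for IFITM2, 0.88 to 0.95 for IFITM3 and 0.15 to 0.19 for LY6E. In THP1, it ranged from 3.08 to 3.12, 0.46 to 0.59, 2.74 to 2.84 and 2.41 to 2.54. The difference ranged from -0.34 to -0.24, 0.026 to 0.15, 1.82 to 1.91 and 2.24 to 2.36, in the same order of genes. The lone library left in a group was assumed to vary like the others. At a fold limit of 2, 1302 genes were called in Molm13 and 400 in THP1, against 1878 up and 1866 down in Molm13 and 624 up and 389 down in THP1 at 1.5. Of the 4 orders of level, 3 stayed with CPM in place of RPKM and 2 with unshared exon bases, an alternative chosen after seeing the data. Deviations from the group mean were hardly correlated between libraries of like replicate number (-0.0528 within Molm13 and -0.00794 within THP1, over all genes fitted). Sampling noise can hide a pairing in this check, so it does not show that the samples were unpaired. With the replicate block, 3711 genes were called in Molm13 and 1019 in THP1, the log2 fold change of LY6E was 0.16 and 2.48, and no call on the 4 genes changed. IFITM1 in the Molm13 controls, at 26 and 25 counts, limits the precision of its fold there.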
